A study of Mus musculus with 4 samples.

Results

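AP-1 is a family of dimeric transcription factors, and the 10 genes described here are its core members and close companions among the immediate early genes. They are *Fos*, *Fosb*, *Fosl1* and *Fosl2* of the Fos family, *Jun*, *Junb* and *Jund* of the Jun family, the related factor *Atf3*, the zinc finger factor *Egr1* and the small nuclear protein gene *Ier2*. They were chosen by name, with earlier results of these data known. All 10 were found among the 24421 genes of the authors' deposited table with a mean normalized count above 0. The table comes from bulk RNA-seq of hair follicle stem cells (HF-SCs) from mouse back skin, with 2 control and 2 *miR-205*-induced libraries. Induced mice carried a doxycycline-inducible *miR-205* transgene switched on by an rtTA activator under the keratin 14 promoter (*Krt14*-rtTA), which is active in skin epithelium. The labels place the mice of both groups at postnatal day 44, on a C57BL/6 background, with a K14-H2BGFP allele, and give the induced mice 2 d of doxycycline. They call the control mice untreated, whereas the study's methods have both groups fed doxycycline. The transgene was made in FVB mice, and the labels do not say how many mice went into a library. For sorting, skin was minced, digested with warm collagenase and trypsin and stained on ice, and the cells collected were alive, bright for H2BGFP, α6 and CD34, and without Sca1.

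Immediate early genes are transcribed within minutes of a stimulus, because the factors that switch them on are already in the cell. Fos proteins cannot pair with each other and bind DNA as dimers with Jun proteins, whereas Jun proteins can also pair among themselves. These genes respond to growth factors, wounding and stretch in skin, and they are also known to respond to the enzymatic dissociation of tissue.

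The mean normalized count is the average, over the 4 libraries, of read counts divided by a size factor for library depth. It pools control and induced mice and is printed here as the authors' mean, so it carries no replicate error and no difference between the groups. The table's other columns hold the authors' own comparison of the groups and were not used, so no test of induction is given for any gene. Relative depths, from genes with 1 read in 1 library, were 1.24, 1.18, 0.966 and 0.716, a 1.73-fold range. Absolute depth is unknown. A counting interval is given as the 95% half-width that would hold if every read came from the shallowest library, which is the largest counting error the mean allows. It covers counting error only and not the spread between mice. To compare genes, the mean was divided by the length of the longest coding transcript, and this level per kb was available for 14644 of the 17044 genes with a mean above 0.

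*miR-205*, the miRNA that was induced, lowers mRNAs that pair with its seed, and its mature sequence is shown with the seed (bases 2 to 8) in capitals. The RefSeq table places it on the minus strand of GRCm38.p6, at chr1:193507503-193507524.

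mmu-miR-205-5p: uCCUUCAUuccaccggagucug

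Of the 10 genes, 1 held a match to these 7 bases in its longest annotated 3′UTR. The gene was *Atf3*, a stress-induced factor of the ATF family, with 1 match at bases 800 to 806 of a 3′UTR of 1186 bases. The site is shown with the match in capitals, as read from the coding transcript of GENCODE vM1.

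*Atf3* 3′UTR: aacgtcacacaATGAAGGcacaaagtcca

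Such a match was present in 11.8% of the 3′UTRs of 14417 genes with a mean above 0, so the count of 1 in 10 is near the share of all genes. A shorter match to bases 2 to 7 was present in 3 of the 10 genes, *Atf3*, *Junb* and *Fosl2*, and in 36.6% of all genes. A match describes letters only and does not show binding.

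The AP-1 and immediate early genes stood among the most abundant mRNAs of the sorted cells. All 10 were among the 300 genes with the highest mean normalized counts, 6 were among the highest 100 and 5 among the highest 30. Together they held 2.39% of all normalized counts. The lowest of them by this measure, *Ier2*, still had more counts than 98.3% of all genes with any reads. Per kb, 9 of the 10 were among the highest 300, 6 among the highest 100 and 3 among the highest 30. With the shortest coding transcript of every gene, these counts were 6, 4 and 0. The median level of the 10 genes was 10150 per kb, against 56.3 per kb for all genes with a coding transcript. These levels are those of both groups together. They are also those of cells after the warm digestion of the skin, and what part of them arose during it was not tested.

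**Figure D1:**
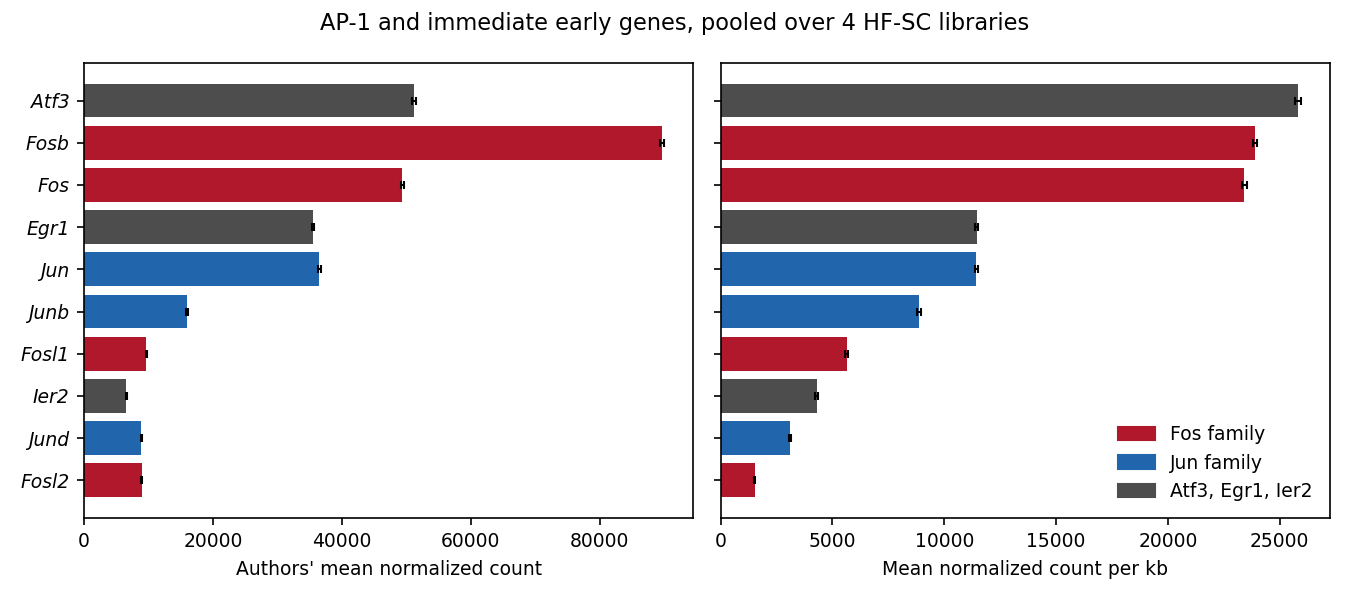
Mean normalized count (left) and mean normalized count per kb of the longest coding transcript (right) of the 10 genes, each pooled by the authors over 2 control and 2 induced libraries. Bars are coloured by family, and error bars are the largest 95% counting error. *Fosb* has the longest bar by count, at 89691, while *Atf3*, *Fosb* and *Fos* lie close together per kb.

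*Fos* and *Fosb*, the strongly inducible members of the Fos family, were the most abundant of its 4 genes. The authors' mean normalized count of *Fosb* (NCBIM37 chromosome 7, 19888070 to 19895394) was 89691, with a counting half-width of at most 347, and 10 of all genes in the table had a higher one. That of *Fos* (chromosome 12, 86814840 to 86818223) was 49376, with a half-width of at most 257. *Fosb* thus took 1.82 times as many reads, but its coding transcript of 3751 bases is longer than the 2108 bases of *Fos*. Per kb the levels were 23911 for *Fosb* and 23423 for *Fos*, a ratio of 1.02. The counts are per gene, so the full-length and the truncated product of *Fosb* cannot be told apart.

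*Fosl1* and *Fosl2*, which encode the Fos-related proteins FRA-1 and FRA-2, were less abundant. *Fosl1* (chromosome 19, 5447703 to 5455945) had a mean normalized count of 9638 and a level of 5646 per kb. *Fosl2* (chromosome 5, 32438845 to 32460204) had a close mean normalized count of 8916, spread over a transcript of 5855 bases, and was the lowest of the 10 genes per kb at 1523. Even this level was 27.0 times the median gene. Per kb, *Fos* stood 4.15 times above *Fosl1* and 15.4 times above *Fosl2*. Within the summed Fos family level per kb, *Fosb* made up 43.9%, *Fos* 43.0%, *Fosl1* 10.4% and *Fosl2* 2.79%.

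The Jun family provides partners with which Fos proteins bind DNA, and each of its 3 genes is a single exon. *Jun* (chromosome 4, 94715725 to 94718913) was the most abundant, with a mean normalized count of 36481 and a level of 11440 per kb. *Junb* (chromosome 8, 87500811 to 87502617), which can act against *Jun* on some targets, had a mean normalized count of 16010 and a level of 8860 per kb. *Jund* (chromosome 8, 73221638 to 73224515), the Jun gene that most cells express without a stimulus, had a mean normalized count of 8879 and a level of 3085 per kb. The shares of the summed Jun family level per kb were 48.9% for *Jun*, 37.9% for *Junb* and 13.2% for *Jund*. *Jun* had 1.29 times the level per kb of *Junb* and 3.71 times that of *Jund*. Per kb of the shortest transcript *Jun* had 2.23 times the level of *Junb*. The Fos family as a whole had 2.33 times the level per kb of the Jun family, 1.59 times with the shortest transcripts, and 2.57 times its counts.

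*Atf3* (chromosome 1, 192994175 to 193007219), a bZIP factor that can pair with Jun proteins, had the highest level of the 10 genes per kb, at 25814, and ranked 12 among all genes with a coding transcript, or 47 with the shortest transcripts. Its mean normalized count was 51215. *Egr1* (chromosome 18, 35020861 to 35024638), a zinc finger factor and not a dimer partner of AP-1, had a mean normalized count of 35524 and a level of 11459 per kb. *Ier2* (chromosome 8, 87185230 to 87186751), a single-exon gene, had a mean normalized count of 6542 and a level of 4298 per kb. The values of *Jun*, *Egr1*, *Fosl1* and *Jund* are less certain than the others, because another annotated gene overlaps each of them on the opposite strand and the strand setting of the counting is not known. The gene over *Fosl1*, *Ccdc85b*, had a mean normalized count of 273. Those over *Jun*, *Egr1* and *Jund* had no value under their symbols among the authors' genes.

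Per kb, the order from the highest to the lowest was *Atf3*, *Fosb*, *Fos*, *Egr1*, *Jun*, *Junb*, *Fosl1*, *Ier2*, *Jund* and *Fosl2*, with the longest coding transcript of each gene. Per kb of the shortest, *Jun* at 19741 stood above *Egr1* at 11701, and *Jund* at 5695 above *Fosl1* at 5646 and *Ier2* at 4298, while the other genes kept their places. The ends of the order differed 17.0-fold on both. *Egr1* and *Jun* differed by 19.7 per kb with a counting half-width of 98.8, and thus did not differ beyond counting error with the longest transcript, whereas *Jun* was 1.69 times higher with the shortest. By mean normalized count the neighbours within counting error were *Fosl2* and *Jund*, which differed by 37.1 with a half-width of 154. All other neighbours differed by more than counting error by count or per kb of the longest transcript, but *Fosb* and *Fos* by only 1.02-fold per kb, and the spread between libraries, which these means do not hold, was not available to set against them. The 3 highest genes made up 61.2% of the summed level per kb of the 10.

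**Figure D2:**
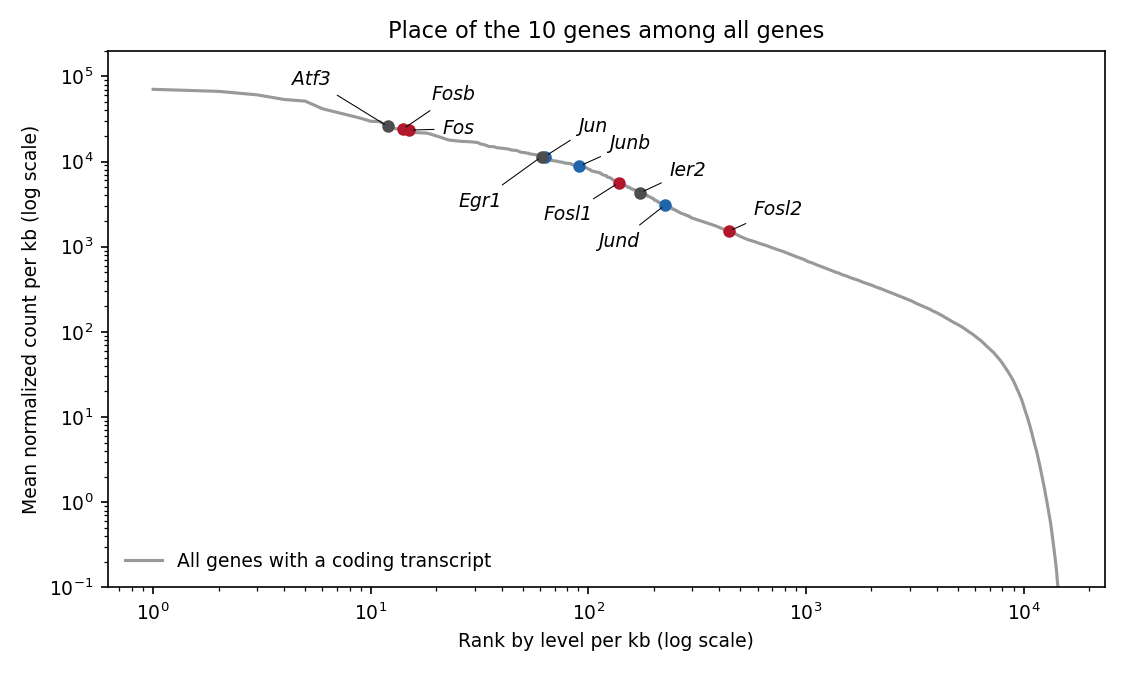
Level per kb of all 14644 genes with a coding transcript and a mean above 0 (grey line, highest first; both axes logarithmic), with the 10 genes marked by family colour, red for Fos, blue for Jun and dark grey for the others. *Atf3*, *Fosb* and *Fos* sit at ranks 12, 14 and 15, and *Fosl2*, the lowest, at rank 442. With the shortest transcripts these ranks are 47, 50, 53 and 1435.

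The abundance of these genes was read against genes that define the sorted cells. These ratios use the longest coding transcript of each gene only. With the shortest transcripts *Fosb* falls from rank 14 to 50, and the ratios are not given. *Krt15*, a keratin of bulge HF-SCs, had the highest level per kb of all genes with a coding transcript, at 70520, which was 2.95 times that of *Fosb*. *Krt14*, the basal keratin whose promoter drives the rtTA activator, had 53575 per kb, or 2.24 times the level of *Fosb*. *Cd34*, the surface protein used in the sort, had 5561 per kb, and *Fosb*, *Fos* and *Atf3* stood 4.30, 4.21 and 4.64 times above it. *Actb*, the actin gene often used as a reference, had 13692 per kb, and *Fosb* stood 1.75 times above it. *Actg1*, the other cytoplasmic actin gene, and *Eef1a1*, a translation elongation factor gene, stood 2.14 and 2.54 times above *Fosb* per kb. The 10 genes listed for HF-SCs, which include the basal keratin *Krt14*, all had reads, the lowest at 355 per kb. *Ly6a*, which encodes the Sca1 used for exclusion, was at 166 per kb. Markers of other cells were not at 0. The highest were *Krt10* of suprabasal cells at 3461 per kb, *Cd74* of antigen-presenting cells at 1946, *Col1a2* of fibroblasts at 879, *Scd1* of sebocytes at 638 and *Dct* of melanocytes at 220. Other genes of the same lists were far lower. In the same order of lists, the lowest were *Ivl* at 61.2, *Ptprc* at 15.1, *Pdgfra* at 6.01, *Mgst1* at 378 and *Mlana* at 15.7. The 3 endothelial markers lay between 2.93 and 10.6 per kb, and the 2 T cell markers at 4.74 and 6.63. AP-1 mRNAs of such cells would be counted here too, and their part in the levels was not tested. In these bulk samples a change in the number of cells of a type and in RNA per cell cannot be told apart.

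Other bZIP genes whose products can pair or compete with AP-1 were mostly far less abundant. Of 21 such genes, 20 had a mean above 0, and their median level was 131 per kb. The highest was *Atf4*, the effector of the integrated stress response, at 6852 per kb, so *Atf3* stood 3.77 times above it. *Mafk* and *Maff*, small Maf proteins without an activation domain, followed at 2451 and 1529 per kb, and they were the only other genes of the list above *Fosl2*, *Maff* only just. *Batf2*, best known from immune cells, was the lowest with reads, at a mean normalized count of 1.07. *Nrl*, a photoreceptor factor, was listed at 0. *Jdp2*, which pairs with *Jun*, was at 120 per kb, so that *Jun* was 95.1 times higher. This gene was named after its value was seen. The summed level per kb of the 10 AP-1 and immediate early genes was 8.42 times that of these partners, with the longest transcripts.

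A wider list of 36 immediate early genes was abundant as well. Their median level was 2209 per kb, 18 of them were among the 300 genes highest per kb, and 5 among the highest 100. Of the 36, 21 lay above *Fosl2* and 1 above *Fos*. That gene was *Cyr61*, which encodes a secreted matricellular protein, at 34757 per kb. It was followed by *Klf4*, a Krüppel-like factor of epithelial differentiation, at 17039 and *Nr4a1*, an orphan nuclear receptor, at 16075. At the other end *Npas4*, known for its induction in neurons, had a mean normalized count of 0.626. The relatives of *Egr1* were added after their values were seen. *Egr1* had 4.16 times the level per kb of *Egr3*, 19.4 times that of *Egr2* and 487 times that of *Egr4*. Likewise *Ier2* stood at 0.624 times the level per kb of *Ier3* and at 14.2 times that of *Ier5*.

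The genes that relay signals to immediate early promoters were present at moderate levels. Of 18 kinases and factors of this kind, none was among the highest 300 per kb, and their median was 188 per kb. The highest were the MAP kinase gene *Mapk3*, also known as ERK1, at 893 per kb, *Srf*, the factor that binds the serum response element, at 873, and its cofactor *Elk4* at 464. *Mapk10*, a JNK gene mostly of the nervous system, was the lowest at a mean normalized count of 1.53. All 18 lay below *Fosl2*.

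**Figure D3:**
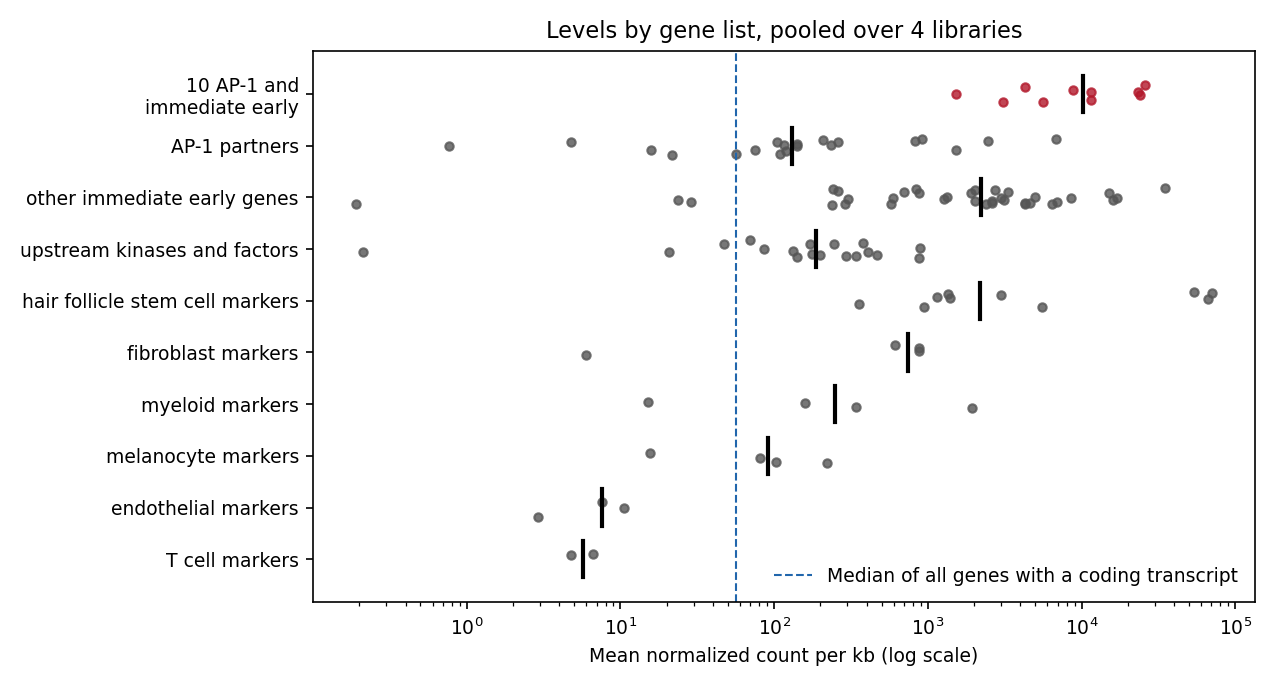
Level per kb (logarithmic axis) of each gene in the lists shown, one point a gene with a mean above 0, pooled over the 4 libraries. The suprabasal, sebaceous and Sca1 genes are not shown. The suprabasal genes have a median of 831 and the sebaceous genes one of 527. Black bars mark list medians and the dashed line the median gene at 56.3. The 10 AP-1 and immediate early genes have the highest median, 10150, while the genes listed for HF-SCs have a median of 2194 and those for endothelial cells 7.58. The lists were chosen with earlier results of these data known, so the order of their medians is a description only.

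Many immediate early mRNAs are short-lived, and AU-rich elements in the 3′UTR, built on the pentamer ATTTA, are known to speed their decay. Of the 10 genes, 9 held at least 1 ATTTA in the longest 3′UTR, against 66.3% of all genes with a 3′UTR. *Ier2* held none. Per kb of 3′UTR, 8 of the 10 lay above the median of 1.20 copies, with *Fos* at 4.91, *Junb* at 4.14 and *Jun* at 3.24. The lowest with a copy was *Fosb*, with 1 ATTTA in 2120 bases. The stricter nonamer TTATTTATT was present in 2 of the 10 genes, *Fos* and *Fosl2*, against 7.21% of all genes, and both sites are shown with the nonamer in capitals, as read from their GENCODE vM1 coding transcripts.

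*Fos* 3′UTR, bases 655 to 663 in capitals: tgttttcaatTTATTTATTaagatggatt

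*Fosl2* 3′UTR, bases 3692 to 3700 in capitals: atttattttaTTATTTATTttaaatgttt

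These sequence counts describe the annotated mRNAs and involve no measured value. The motifs were searched on the mRNA strand, and every TTATTTATT contains an ATTTA. The search for AU-rich elements was added after the levels had been seen.

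Promoter windows from 250 bases before to 50 after the start were held in the RefSeq table (GRCm38.p6) for 7 of the 10 genes, *Fosb*, *Atf3*, *Fos*, *Jun*, *Junb*, *Fosl2* and *Jund*. None of the 7 held, on either strand, a CArG box, which SRF binds, a full cAMP response element (TGACGTCA) or an AP-1 site (TGACTCA or TGAGTCA). Of all 32851 promoter windows in the table, 1.63%, 1.79% and 5.20% held them. This says only that these exact letters are not in these windows.

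The mean of a scarce gene is a sum of whole reads, each worth a fixed amount in its library, and so its reads in each library could be read back. This was done for means up to 100, where each of the 8171 genes had exactly 1 set of whole reads that gives its mean. The 10 AP-1 and immediate early genes were all far above this range, and no library value was obtained for them. The libraries are named A to D from the deepest to the shallowest, and nothing in the mean says which were control. *Egr4*, the scarcest relative of *Egr1*, had normalized counts of 84.1 in A, 32.2 in B, 40.4 in C and 44.7 in D, from 104, 38, 39 and 32 reads. Library A was thus 2.61 times the lowest. For 732 genes with means from 40 to 60, the median ratio of the highest to the lowest library was 1.73. Of those genes, 14.2% had a higher ratio than *Egr4*. *Dusp2*, an immediate early phosphatase of MAP kinases, had 53.4 in A, 55.1 in B, 44.5 in C and 32.1 in D. Its order of libraries was not that of *Egr4*. *Batf*, an AP-1 partner known from lymphocytes, had 8.90 in A, 29.7 in B, 12.4 in C and 9.77 in D, so that library B was 3.34 times the lowest. For 913 genes with means from 10 to 20 and reads in every library, the median ratio was 2.53. *Ptprc*, a marker of leukocytes, was also highest in B, at 132 against 57.4, 99.3 and 61.4 in A, C and D. Of the T cell markers, *Cd3g* was highest in B, at 9.33, and *Cd3e* lowest there, at 3.39. Their part in the value of *Batf* was not tested. *Mafa*, a large Maf factor, had 31.5 in A, 14.4 in B, 22.8 in C and 25.1 in D. *Elk3*, a repressor among the partners of SRF, had 72.0 in A, 79.7 in B, 98.3 in C and 99.1 in D. Its ratio of the highest to the lowest library, 1.38, was the lowest of these 5 genes. These libraries could not be placed in groups, and no test was made between them.

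**Figure D4:**
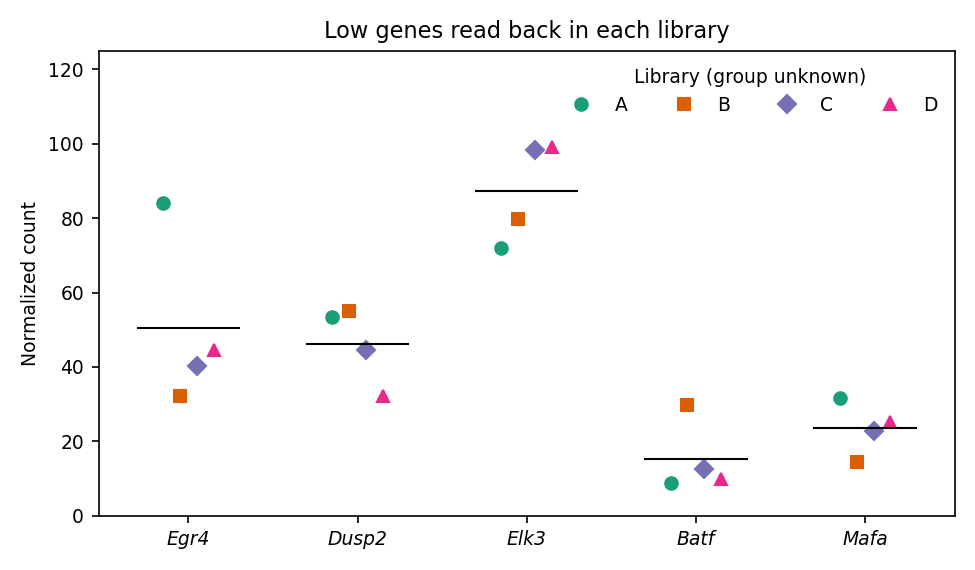
Normalized counts of 5 scarce genes of the lists in each of the 4 libraries, ordered A to D by falling depth, with the authors' mean as a black line. *Egr4* is highest in library A and *Batf* in library B, and which libraries were control or induced is not known from these values.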

How the data were processed

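RNA from sorted HF-SCs of 2 control and 2 *miR-205*-induced libraries was sequenced as 150-nt paired-end reads from a strand-keeping kit. Per the labels and methods, the authors used HISAT2 2.1.0 for alignment and SAMtools 1.3.1 for file conversion, then HTSeq for read counts of genes and DESeq2 for the comparison. The genome is named as NCBI37/mm10, which are different builds. The strand setting of the counting is not given in the sources used here. The authors deposited a mean normalized count per gene, a signal averaged over the 4 libraries and not divided by gene length. The other 5 columns hold the authors' log2 fold change, its standard error, test statistic, p-value and adjusted p-value, and were not used. The table holds no column for a single library, so no new comparison of the groups from counts was possible, and the planned count test was not run. Depth per library is known only in relative terms.

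Levels per kb used the longest coding transcript of GENCODE vM1 (NCBIM37), matched by symbol for 85.9% of genes with a mean above 0. Places are on NCBIM37, and those of *miR-205* and of promoters on GRCm38.p6. Reads were read back per library by searching all sets of whole reads within the rounding of the table. Tested on simulated data, this recovered 286 of 286 sets. The members and lists were chosen with earlier results of these data known. All 10 members are named. From each of the 3 lists of other genes the 3 highest per kb and the lowest are named, and the 5 scarce genes shown by library were chosen after their values were seen. Python 3.11.15, numpy 2.4.6, pandas 2.3.3 and matplotlib 3.10.9 were used. Alternatives were other transcript lengths, other gene sets for the percentile, other 3′UTRs, a shorter seed match, the upstream part of the promoter window, a wider tolerance and a limit on the ratio between libraries, and leaving out *Rn45s*.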

Additional observations from a re-analysis of the deposited data

How the results depend on the processing

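The share of all normalized counts held by the 10 genes was 2.39%. It was 2.53% of the summed level per kb of the longest coding transcript, 1.08% per kb of the shortest, and 2.48% with the ribosomal RNA row *Rn45s* left out, the last chosen after seeing the data. With the shortest transcripts, which raise the level per kb of every gene that has several lengths, 0, 4 and 6 of the 10 genes were among the highest 30, 100 and 300, against 3, 6 and 9 with the longest. The ranks with the shortest ran from 47 for *Atf3* to 1435 for *Fosl2*, against 12 to 442. The percentile of *Ier2* went from 98.3 to 97.2 when only genes with a mean over 50 were counted. A match to *miR-205* bases 2 to 8 was in 1 gene with the longest or the shortest 3′UTR, and a match to bases 2 to 7 in 3. The promoter motifs were in 0 of 7 windows on the whole window and on its upstream part. Allowing 10 times the rounding limit gave the same 8171 genes with 1 set of reads. A limit of 20-fold between libraries left 5211, since it drops genes with a library at 0.

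No paired analysis was possible because the deposited table holds no value per labelled library. For the same reason no replicate was left out and no other count test was run. Depth limits scarce genes, and the spread between libraries of the 10 genes is not known.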
